A study of Homo sapiens with 8 samples.

Results

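The mitochondrial ribosomal protein genes are the nuclear genes named MRPL or MRPS with a number, whose proteins make up the large and the small subunit of the ribosome inside mitochondria. They were chosen by name alone, and 78 of the 20030 rows in each library carry such a name, 49 of them MRPL and 29 MRPS. All 78 passed the filter on low values, at least 1 FPKM in at least 2 libraries, which 10677 of the 20030 rows passed. The libraries were made from HCT-116, a line of human colorectal cancer cells, after siRNA transfection. There were 2 libraries with the control siRNA (siNC) and 3 with an siRNA to *HHEX*, a homeobox transcription factor gene (siHHEX). In 2 libraries *YAP1* and *WWTR1*, which encode the coactivators YAP and TAZ, were the targets (siYAP/TAZ), and there was 1 with siRNAs to the 4 genes of their DNA-binding partners, *TEAD1* to *TEAD4* (siTEAD1/2/3/4). By the study's methods, the libraries of siHHEX and of siYAP/TAZ differed in siRNA as well as in replicate number, and a single siRNA was directed at *TEAD1*, *TEAD3* and *TEAD4*. The third siHHEX library stands in the labels under another heading than the other 7, and whether it came from another batch is not stated. Nothing in the labels says whether the siNC libraries came from separate cultures. The p-values measure the spread between these libraries, which in siHHEX and siYAP/TAZ includes the difference between siRNAs and in siNC may be technical. Levels are in FPKM, which counts the sequenced fragments of a gene per unit of its length and of library size, so that levels of different genes can be set beside each other.

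The mitochondrial ribosome translates the few messages of mitochondrial DNA, all of which encode subunits of the oxidative phosphorylation complexes. Its RNAs come from mitochondrial DNA, but its proteins are encoded in the nucleus, made in the cytoplasm and imported. Some of these proteins descend from bacterial ribosomal proteins and others are found in mitochondrial ribosomes without a bacterial counterpart. By the role assigned to their protein here, 30 of the 78 belong to the large subunit with a bacterial counterpart and 21 to the large subunit without one. Another 16 belong to the small subunit with a bacterial counterpart and 10 to the small subunit without one. *MRPS18A* and *MRPS18B* were counted as without a bacterial counterpart, although they are named alike with *MRPS18C*, which was counted as having one. *MRPS36* is the remaining gene, whose protein is now known as a subunit of the oxoglutarate dehydrogenase complex and not of the ribosome.

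The targets of the siRNAs were looked at first. *HHEX* was at 8.60 and 9.06 FPKM in siNC and at 3.25, 3.54 and 1.85 FPKM in siHHEX, with no overlap. *YAP1* was at 20.2 and 19.7 FPKM in siNC and at 6.90 and 8.39 FPKM in siYAP/TAZ, and *WWTR1* at 6.80 and 6.72 against 2.64 and 2.58 FPKM. In the siTEAD1/2/3/4 library, *TEAD1*, *TEAD2* and *TEAD4* were at 9.02, 2.73 and 5.56 FPKM, below both siNC libraries, whereas *TEAD3* was at 9.08 FPKM, above its 7.36 and 6.99 FPKM in siNC, which goes against the label for this target. *YAP1* was also at 5.77 and 6.93 FPKM in siHHEX 1 and siHHEX 3, and at 17.4 FPKM in siHHEX 2. *TEAD1* was at 6.99, 10.2 and 5.30 FPKM in siHHEX, against 18.3 and 19.0 FPKM in siNC (-1.25, limma, adjusted p = 0.00641), and *TEAD2* rose there to 6.50, 8.02 and 7.18 FPKM from 4.10 and 3.47 FPKM (0.78, adjusted p = 0.00709). With the correction for GC content and length described further on, these differences were -0.91 and 0.47, and no target was called higher in siHHEX. *TEAD4* fell in siYAP/TAZ to 12.5 and 13.6 FPKM from 20.3 and 21.3 FPKM (limma, adjusted p = 0.0250). *HHEX* was at 4.80 and 7.12 FPKM in siYAP/TAZ, below both siNC libraries, without passing the test (adjusted p = 0.196). Of 6 genes of colorectal epithelial cells, 5 were expressed and *VIL1* was at most at 0.033 FPKM. The 6 summed to 3371 and 3513 FPKM in siNC, 3114, 3439 and 3654 FPKM in siHHEX, 2027 and 1973 FPKM in siYAP/TAZ and 2712 FPKM in siTEAD1/2/3/4, with *KRT8* the most abundant in each library, and their part in the results was not tested. Markers of fibroblasts (5 genes, led by *COL1A1*) summed to at most 2.51 FPKM and those of endothelium (3 genes) to at most 0.0882 FPKM. Those of leukocytes (4 genes) summed to between 3.52 and 7.35 FPKM, of which the monocyte and lysosome gene *CD68* made up nearly all.

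The mitochondrial ribosomal protein genes were well expressed in control cells. Their siNC mean had a median of 48.2 FPKM, against 7.34 FPKM over the tested genes, and 76 of the 78 lay above that median. Levels of single genes spanned 44.4-fold, although the proteins of all but *MRPS36* occur in 1 ribosome. Of the 78, 11 genes were over 100 FPKM and 12 under 20 FPKM. The siNC libraries differed by at most 1.20-fold for any of the 78. The most abundant was *MRPL12*, which encodes the stalk protein that recruits translation factors, at 254.7 and 263.1 FPKM in siNC. It was followed by *MRPL51* (228.0 and 226.7 FPKM), a large subunit gene without bacterial counterpart, and by *MRPS24* (160.9 and 166.8 FPKM), a small subunit gene with one. *MRPL41*, *MRPL33* and *MRPL27* came next with means of 161, 141 and 139 FPKM. The siNC values of *MRPS24* and *MRPL41* overlapped, as did those of *MRPL33* and *MRPL27*, so that the order within each pair was not larger than the spread between libraries.

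At the other end, *MRPS11*, whose protein binds the RNA of the small subunit platform, was at 5.94 and 5.72 FPKM. *MRPS25* (7.03 and 6.28 FPKM), *MRPS14* (7.95 and 7.41 FPKM) and *MRPL23* (8.20 and 8.47 FPKM), which encodes a protein at the exit of the peptide tunnel, followed. *MRPL52* and *MRPL55* had means of 9.59 and 12.9 FPKM. The level did not follow the subunit. The median was 46.1 FPKM over the large subunit genes and 52.7 FPKM over those of the small subunit, and each of the 4 groups by role held genes both under 20 and over 100 FPKM. For 36 of the 78 genes the annotation lists pseudogenes named after them, and exons of 18 overlap an exon of another gene on the same strand and those of 30 one on the opposite strand. Whether the authors' counting used strand is not given in the sources used here, and the values of these genes are uncertain to that extent.

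**Figure D1:**
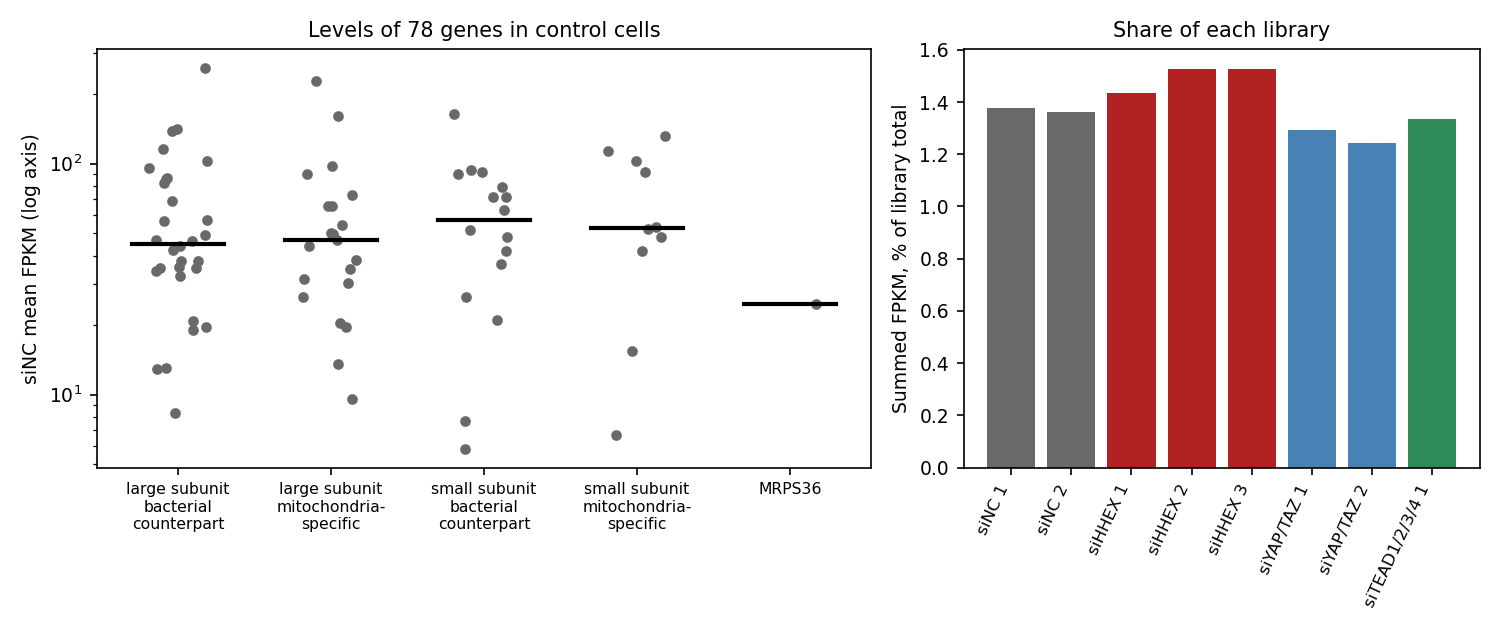
Left, siNC mean FPKM (log axis) of each of the 78 genes by role, with the median of each role as a line; every role but that of *MRPS36* alone spans genes under 20 and over 100 FPKM. Right, the summed FPKM of the 78 genes as a percentage of the total FPKM of each library, with 1 bar per library; the siHHEX bars are the highest and the siYAP/TAZ bars the lowest.

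Summed over the 78 genes, the level was 4806 and 4713 FPKM in siNC, 5364, 5570 and 5850 FPKM in siHHEX, 4287 and 4195 FPKM in siYAP/TAZ and 4594 FPKM in siTEAD1/2/3/4. As a share of the total of each library, this was 1.38% and 1.36% in siNC, 1.43%, 1.53% and 1.53% in siHHEX, 1.29% and 1.24% in siYAP/TAZ and 1.34% in siTEAD1/2/3/4. The 3 siHHEX libraries were above both siNC libraries and both siYAP/TAZ libraries below them. In bulk RNA, more cells with a given level and more RNA per cell cannot be told apart. The siHHEX, siYAP/TAZ and siTEAD1/2/3/4 changes given next share the same siNC libraries.

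**Figure D2:**
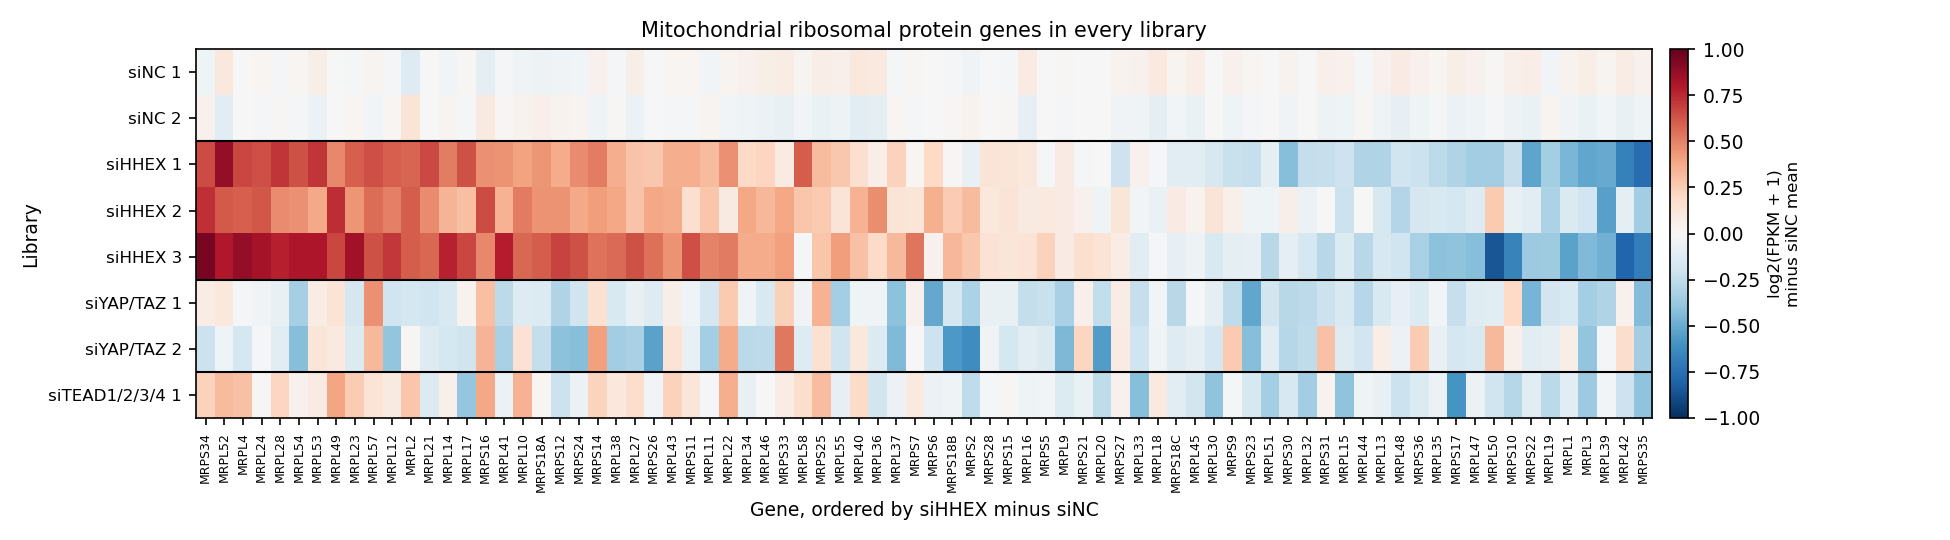
Difference of each of the 78 genes (columns, ordered by their change in siHHEX) from the siNC mean on the log2(FPKM + 1) scale in each of the 8 libraries (rows), red higher and blue lower, with the colour scale ending at 1 and -1. The 3 siHHEX rows run from red to blue, siHHEX 2 with the least contrast, and both siYAP/TAZ rows are mostly pale blue.

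After knockdown of *HHEX*, 26 of the 78 genes rose and 4 fell, and 48 did not pass the test (limma on log2(FPKM + 1), Benjamini-Hochberg adjusted p under 0.05 over all tested genes). The background is large, since 16.0% of all tested genes were called higher in siHHEX and 16.9% lower, against 33.3% and 5.13% of the 78. The median difference of the 78 was 0.21 on the log2 scale, against -0.01 over all tested genes and 0.01 over 1111 other tested genes whose siNC level lay between the quartiles of the 78 (31.8 and 85.0 FPKM). Of those genes of similar level, 21.2% were called higher and 21.4% lower. In 42 of the 78, or 53.8%, every siHHEX library was above both siNC libraries, against 33.1% of all tested genes, and in 18, or 23.1%, every one was below, against 33.8%.

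The gene that rose most was *MRPS34*, which encodes a small subunit protein without bacterial counterpart that stabilizes the RNA of that subunit. It was at 109.9 and 116.8 FPKM in siNC and at 179.1, 189.0 and 220.0 FPKM in siHHEX, a difference of 0.78 ± 0.128 (SE) on the log2 scale (limma, adjusted p = 0.00627). All 3 siHHEX libraries stood clear of siNC. *MRPL52*, a large subunit gene among the least abundant, was at 10.4 and 8.83 FPKM in siNC and at 18.5, 15.1 and 17.4 FPKM in siHHEX (0.76 ± 0.135, adjusted p = 0.00729). *MRPL4* and *MRPL24*, whose proteins line or border the tunnel through which the new chain leaves, rose from means of 43.9 and 46.9 FPKM by 0.71 and 0.70 (adjusted p = 0.00669 and 0.00535). *MRPL28*, with a bacterial counterpart, and *MRPL54*, without one, rose by 0.65 and 0.64. Those of the 26 with the smallest difference rose by 0.36.

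The 4 genes that fell were *MRPS35*, *MRPL39*, *MRPL3* and *MRPL19*. *MRPS35*, of the small subunit, was at 53.6 and 50.6 FPKM in siNC and at 30.3, 40.6 and 31.8 FPKM in siHHEX (-0.60 ± 0.140, adjusted p = 0.0147). *MRPL39*, whose protein resembles part of a tRNA synthetase, was at 13.8 and 13.2 FPKM in siNC and at 9.26, 8.96 and 9.44 FPKM in siHHEX (-0.51 ± 0.127, adjusted p = 0.0182). *MRPL3*, which encodes a protein reaching towards the peptidyl transferase centre, differed by -0.38 (adjusted p = 0.0395) and *MRPL19*, of the interface between the subunits, by -0.34 (adjusted p = 0.0429). In these 4 genes no siHHEX library reached the lower siNC library.

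By role, 12 genes rose and 2 fell of the 30 large subunit genes with a bacterial counterpart, and 9 rose and 1 fell of the 21 without one. In the small subunit, 4 rose and none fell of the 16 with a bacterial counterpart, and 1 rose and 1 fell of the 10 without one. Whether the subunits differ was not tested. The median differences were 0.27 over the 51 large subunit genes, whose transcripts have a median GC content of 50.8%, and 0.15 over the 26 small subunit genes, with one of 46.7%. With the correction for GC content and length described further on, the order turned, at 0.01 and 0.07, with 5 of the 51 and 3 of the 26 called higher.

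The promoters of the genes with the highest and the lowest called difference in siHHEX, and the lowest in siYAP/TAZ, are given here. They are the 250 bases before the RefSeq start on GRCh38.p14, in the direction of the gene, for *MRPS34* (chr16:1773135-1773384, minus strand), *MRPS35* (chr12:27710582-27710831, plus strand) and *MRPS23* (chr17:57850045-57850294, minus strand). *MRPS23* had the lowest called difference in siYAP/TAZ, where no gene was called higher. Capitals mark CTTCCGG, the reverse complement of CCGGAAG, the core of the sites bound by ETS factors such as GABP.
MRPS34: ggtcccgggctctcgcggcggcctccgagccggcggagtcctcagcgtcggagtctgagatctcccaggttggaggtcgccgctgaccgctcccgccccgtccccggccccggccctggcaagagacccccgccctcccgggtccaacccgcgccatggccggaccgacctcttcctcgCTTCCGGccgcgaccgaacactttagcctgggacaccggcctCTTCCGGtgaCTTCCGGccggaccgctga
MRPS35: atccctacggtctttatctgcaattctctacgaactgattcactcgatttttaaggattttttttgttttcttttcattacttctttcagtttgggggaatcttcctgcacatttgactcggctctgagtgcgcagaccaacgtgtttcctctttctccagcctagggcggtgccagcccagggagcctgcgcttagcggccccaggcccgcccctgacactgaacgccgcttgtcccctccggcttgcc
MRPS23: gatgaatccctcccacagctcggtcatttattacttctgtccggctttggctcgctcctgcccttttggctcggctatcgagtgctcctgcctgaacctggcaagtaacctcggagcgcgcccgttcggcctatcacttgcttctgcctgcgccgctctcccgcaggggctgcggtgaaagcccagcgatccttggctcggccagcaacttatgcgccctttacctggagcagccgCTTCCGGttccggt
The *MRPS34* promoter holds this word 3 times and is 73.6% G and C, the *MRPS23* promoter holds it once at 61.6%, and the *MRPS35* promoter, at 52.8%, has no match in this window. With the correction for GC content and length described further on, *MRPS34* and *MRPS35* differed by 0.24 and -0.30 in siHHEX. Neither was then called, while *MRPS23* was still called in siYAP/TAZ, at -0.59. Whether these sequences bear on the differences was not tested.

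Promoter windows of 300 bases, 250 before and 50 after the start, were found for 69 of the 78 genes, and 5 short words were searched in them on both strands. CCGGAAG stood in 29 of the 69 (42.0%), against 21.3% of the 8517 tested genes with a window and 10.7% of all 27305 windows. AAGATGGCG, the core of the site of YY1, stood in 13 (18.8%), against 4.41% of the tested genes and 1.85% of all windows. GCATGCGC, the core of the site of NRF1, a known regulator of nuclear genes for mitochondria, stood in 6 (8.70%), against 5.84% of the tested genes and 3.27% of all windows. GGAATG, the core of the site of TEAD factors, stood in 10 (14.5%), against 10.6% of the tested genes and 14.0% of all windows, and CACGTG, the E-box bound by MYC, in 6 (8.70%), against 10.5% and 7.43%. No matches of different words overlapped in these 69 windows. Among the 22 genes with a window that rose in siHHEX, 11 held CCGGAAG and 5 held GGAATG, against 18 and 5 of the other 47. AAGATGGCG stood in 4 of the 22 and 9 of the 47, GCATGCGC in 2 and 4, and CACGTG in 1 and 5. The tested genes as a whole had lower levels than the 78 (siNC medians of 7.34 and 48.2 FPKM). Shares over genes of similar level were not computed, so whether the shares of the 78 differ from those is not known. A match is only a run of letters and says nothing of binding.

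The siHHEX differences followed the GC content of the transcripts. Over the 78 genes, whose canonical transcripts range from 34.8% to 66.7% GC, Spearman's rho between GC content and the siHHEX difference was 0.77, and it was 0.74 over the 1073 other genes of similar level with a transcript. These points share the same 5 libraries and are a description. Within single siHHEX libraries rho was 0.73, 0.70 and 0.80 over the 78 genes. Of the 26 genes with the lowest GC content, 1 rose and 4 fell, with a median of -0.20. Of the middle 26, 5 rose, with a median of 0.20. Of the 26 with the highest GC content, 20 rose and none fell, with a median of 0.51.

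The differences of other genes of similar level also climbed with GC content, from lower medians. In the lowest of these ranges of GC content 2.37% of them were called higher and 52.8% lower, in the middle one 8.27% and 15.0%, and in the highest one 42.8% and 0.718%. Their medians in the 3 ranges were -0.47 (337 genes), -0.05 (266 genes) and 0.32 (418 genes). Each lay below that of the ribosomal protein genes, and the difference between the lists was not tested. Their transcripts were also longer, with medians of 2975, 2365 and 1934 bases, against 1698.5, 1311 and 998.5 bases in the ribosomal protein genes. Over genes of similar level the siHHEX difference fell with length (rho -0.46). With GC content and length corrected as described next, their medians were -0.13, -0.07 and -0.02, against 0.07, 0.02 and 0.02. The trend with GC content and transcript length took up 46.2%, 16.0% and 60.0% of the variance of siHHEX 1, 2 and 3 around the mean of all libraries. It took up 29.3% and 24.0% in siNC, 26.1% and 19.5% in siYAP/TAZ and 11.3% in siTEAD1/2/3/4. That mean includes the siHHEX libraries, so these shares do not measure the trend against siNC. Against siNC, the rho of siHHEX 2 with GC content was 0.70, beside 0.73 and 0.80 in siHHEX 1 and 3.

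With this trend taken off, 8 genes were called higher in siHHEX and none lower, against 3.58% and 3.19% of the 10349 tested genes with a transcript, and the median over the 78 was 0.03, against -0.07 over genes of similar level. The 8 were *MRPL17*, *MRPL22*, *MRPL49*, *MRPL52*, *MRPL57*, *MRPS14*, *MRPS16* and *MRPS33*, and 6 of them were also among the 26. The corrected differences of the 78 still followed transcript length, with a rho of 0.38 (-0.34 before the correction), and 7 of the 8 have transcripts of 2026 to 4210 bases, against a median of 1242 bases over the 78. For *MRPS14*, whose transcript is only 39.9% GC, the corrected difference was 0.82 (limma, adjusted p = 0.0154). It was at 7.95 and 7.41 FPKM in siNC and at 11.4, 10.6 and 11.7 FPKM in siHHEX, with no overlap before any correction. *MRPS34* kept its sign at 0.24 but was no longer called (adjusted p = 0.216), and *MRPL19* turned to 0.16. A second limit is the number of controls, since leaving 1 out leaves a single siNC library and the spread then comes from other groups. The median over the 78 before correction was 0.20 without siNC 1 and 0.20 without siNC 2. *MRPS34* differed by 0.74 and 0.82 in these fits. Without siNC 1, and likewise without siNC 2, none of the 78 was called in either direction, and without siHHEX 2 the 30 calls became 30 higher and 13 lower.

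**Figure D3:**
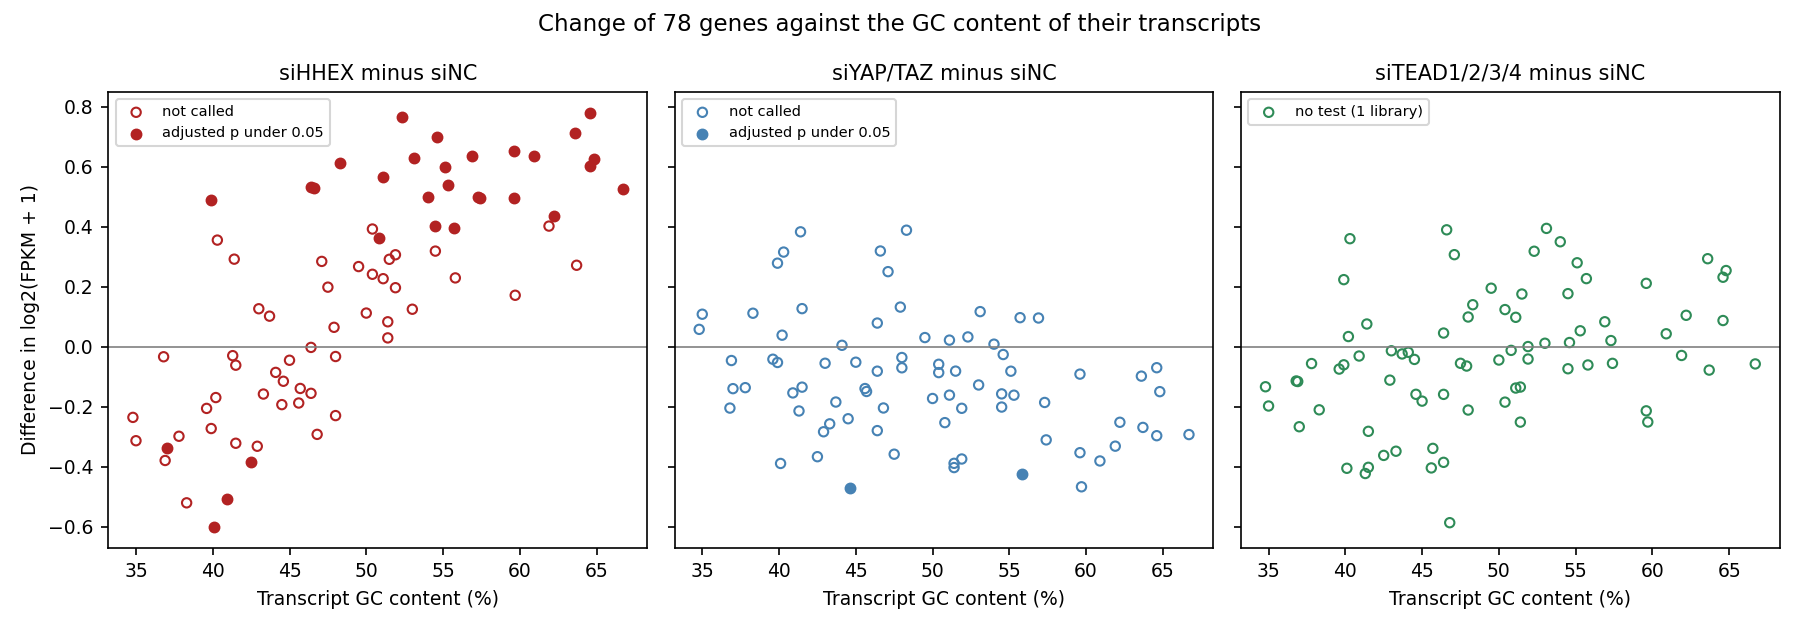
Difference in log2(FPKM + 1) from siNC (vertical axis) against the GC content of the canonical transcript in percent (horizontal axis) for the 78 genes, in siHHEX, siYAP/TAZ and siTEAD1/2/3/4; filled points had an adjusted p under 0.05, and the single siTEAD1/2/3/4 library has no test. The siHHEX points climb from the lower left to the upper right (rho 0.77), the siTEAD1/2/3/4 points climb less (rho 0.41), and the siYAP/TAZ points lie mostly below 0 along the whole range.

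After knockdown of *YAP1* and *WWTR1* most of the 78 genes were slightly lower than in siNC, as were most other genes of similar level. The difference was below 0 for 57 genes and above 0 for 21, with a median of -0.14, against 0.08 over all tested genes and -0.12 over those of similar level. Only 2 of the 78 passed the test, both lower, and none higher, where 2.13% of all tested genes were called lower and 6.15% higher. At an unadjusted p under 0.05 in limma, 14 of the 78 (17.9%) were lower and 3 higher, against 838 lower and 2073 higher of all tested genes and 215 lower (19.4%) of the 1111 genes of similar level. Both siYAP/TAZ libraries were below both siNC libraries for 46 of the 78 (59.0%), against 24.8% of all tested genes and 555 of the 1111 of similar level. They were above both for 11 (14.1%), against 42.9% of all tested genes.

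*MRPS23*, of the small subunit, was at 133.1 and 130.0 FPKM in siNC and at 91.5 and 97.6 FPKM in siYAP/TAZ (-0.47 ± 0.113, limma, adjusted p = 0.0380). *MRPL37*, of the large subunit, was at 95.9 and 98.8 FPKM in siNC and at 73.0 and 71.5 FPKM in siYAP/TAZ (-0.43 ± 0.113, adjusted p = 0.0497). For both genes the siYAP/TAZ libraries lay below every other library. Neither was called when any of the 4 siNC and siYAP/TAZ libraries was left out. Each of these fits leaves 1 library in a group. The differences in them were between -0.52 and -0.43 for *MRPS23* and between -0.45 and -0.40 for *MRPL37*. Of the 30 large subunit genes with a bacterial counterpart, 28 had a difference below 0 and none was called, against 13 of 21, 10 of 16 and 6 of 10 below 0 in the other roles. Of the genes of similar level 67.2% were below 0, and of all tested genes 39.7%. Whether the roles differ was not tested.

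GC content did not order the siYAP/TAZ differences in the same way. Over the 78 genes rho was -0.31, and -0.08 over the 1073 genes of similar level. It was -0.02 in siYAP/TAZ 1 and -0.45 in siYAP/TAZ 2, so that it rests on 1 library. With the trend taken off, 12 genes were called lower, *MRPL3*, *MRPL9*, *MRPL12*, *MRPL20*, *MRPL37*, *MRPL41*, *MRPL54*, *MRPL55*, *MRPS12*, *MRPS23*, *MRPS24* and *MRPS35*, which is 15.4% of the 78, against 6.13% of all genes and 14.3% of those of similar level. After the correction rho in the 78 was -0.34 with GC content and 0.34 with length (0.31 before), and 7 of the 12 were among the 26 genes with the highest GC content. The median over the 78 was then -0.21, the same to 2 decimals as over genes of similar level. *MRPL12*, the most abundant of the 78, was at 225.4 and 196.6 FPKM in siYAP/TAZ and below both siNC libraries (-0.30, adjusted p = 0.128 without and 0.0343 with the correction).

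In the single siTEAD1/2/3/4 library, for which no test was made, the difference was below 0 for 46 genes and above 0 for 32. The median was -0.04, against 0.06 over all tested genes and -0.05 over those of similar level. These differences also followed GC content, with a rho of 0.41 over the 78 genes and 0.34 over genes of similar level, and 22 of the 26 genes with the lowest GC content were below 0 and 18 of the 26 with the highest above. The library was above both siNC libraries for 26 of the 78 (33.3%), against 52.3% of all tested genes, and below both for 43 (55.1%), against 35.1%. Of the genes of similar level it was above both for 36.4% and below both for 51.4%, close to the shares of the 78. *MRPS17*, with a bacterial counterpart in the small subunit, was the lowest, at 47.4 FPKM against 74.9 and 68.7 FPKM in siNC, a difference of -0.59. *MRPL33*, *MRPS35* and *MRPL15* followed at -0.42, -0.41 and -0.40. *MRPL49* (96.8 against 73.1 and 73.8 FPKM), *MRPS16* (54.8 against 39.0 and 44.4 FPKM), *MRPL22* and *MRPL10*, which anchors the stalk protein, were the highest at 0.39, 0.39, 0.36 and 0.35. All 8 lay outside the range of the siNC libraries.

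The difference between siHHEX and siYAP/TAZ does not use the siNC values, although its p-values take part of their spread from the siNC libraries. Fitted on these 2 groups alone, 31 genes were called higher. In the fit of all 8 libraries 34 of the 78 (43.6%) were higher in siHHEX and 1 lower, where 13.5% of all tested genes were called higher and 25.9% lower. Among genes of similar level 30.2% were called higher and 14.8% lower, and the medians were 0.27 over the 78, 0.13 over genes of similar level and -0.13 over all tested genes. *MRPL54* differed most, at 102.4, 90.2 and 115.5 FPKM in siHHEX and 51.7 and 48.4 FPKM in siYAP/TAZ (1.02 ± 0.124, limma, adjusted p = 0.00330), with its siNC values of 66.2 and 64.6 FPKM in between. *MRPL12* was at 392, 368 and 424 FPKM in siHHEX, above its siYAP/TAZ values given before (0.90, adjusted p = 0.00310). *MRPS12*, which encodes a protein of the decoding centre, differed by 0.85 (102, 108 and 127 FPKM against 64.0 and 59.3 FPKM), and *MRPS34* by 0.85. For these 4 genes the groups did not overlap.

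The 1 gene called lower in siHHEX was *MRPL42*, at 23.5, 35.9 and 21.6 FPKM against 39.5 and 43.4 FPKM in siYAP/TAZ (-0.63, adjusted p = 0.0306). Its siHHEX 2 value lay near the siYAP/TAZ values, and with the trend of GC content and length taken off the difference was 0.02. Of the 34 genes called higher, 22 were also called higher in siHHEX than in siNC and 12 were not. Both comparisons use the same siHHEX libraries, and the overlap that this alone would give was not tested. GC content again ordered the differences, with a rho of 0.88 over the 78 genes and 0.80 over genes of similar level. With the trend taken off, 20 genes were called higher, 14 of them among the 34, and none lower, which is 25.6% of the 78, against 5.47% of all genes and 13.3% of those of similar level. The corrected difference was above 0 for 72 of the 78 (92.3%), against 72.2% of genes of similar level and 51.3% of all genes. The median corrected difference was 0.30 over the 78, against 0.15 over genes of similar level. Without siYAP/TAZ 2 the number called higher before correction was 17.

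**Figure D4:**
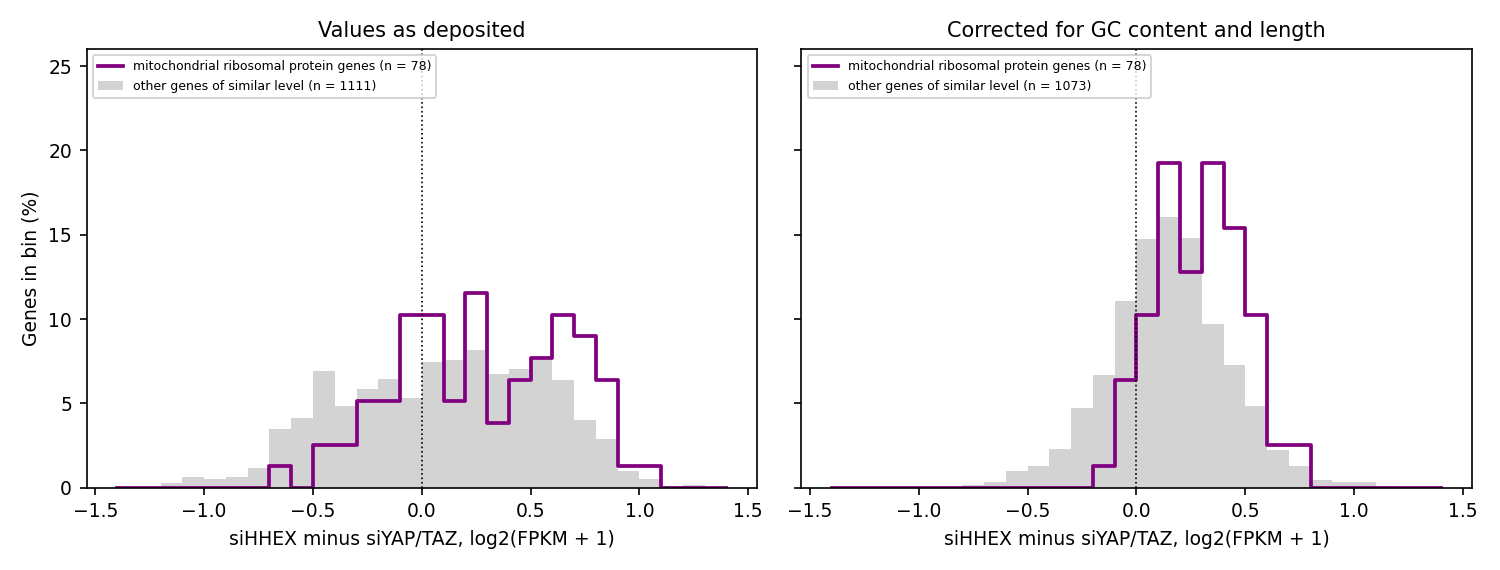
Share of genes in percent (vertical axis) by the siHHEX minus siYAP/TAZ difference in log2(FPKM + 1) (horizontal axis, bins of 0.1) for the 78 genes (line) and the other genes of similar level (grey bars), as deposited on the left and corrected for GC content and length on the right. The medians were 0.27 and 0.13 on the left and 0.30 and 0.15 on the right.

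Other genes of the same machinery were called in both directions in siHHEX, as were 16.0% (higher) and 16.9% (lower) of all tested genes, and these small lists are given as values only. Of 5 subunits of the mitochondrial ribosome that have other names, *GADD45GIP1* (176 and 167 FPKM in siNC, 238, 250 and 301 FPKM in siHHEX) and *AURKAIP1* rose in siHHEX by 0.61 and 0.40 (limma, adjusted p = 0.00900 and 0.0225), and *PTCD3*, a protein that binds the small subunit RNA, fell by 0.46. With the trend of GC content and length taken off, *AURKAIP1* turned to -0.20, while *GADD45GIP1* was at 0.22 and *PTCD3* at -0.11. *AURKAIP1* was the only gene of the 5 called in siYAP/TAZ, at 82.8 and 75.4 FPKM against 109 and 111 FPKM in siNC (-0.47, adjusted p = 0.0410). Of 22 genes for assembly of the ribosome and modification of its RNA, 4 rose in siHHEX, among them the RNA methyltransferase gene *MRM1* (0.62) and *METTL17* (0.50), and 1 fell, *FASTKD2* (-0.77), an RNA-binding protein gene. None of the 22 was called in siYAP/TAZ, and 3 were called lower with the trend of GC content and length taken off. That correction gave 6.13% lower in siYAP/TAZ over all tested genes with a transcript.

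Of 12 tested translation factor and message-binding genes, *TUFM*, the elongation factor that brings tRNA to the ribosome, and *TACO1*, an activator of translation of a cytochrome oxidase message, rose in siHHEX by 0.55 and 0.37. *LRPPRC*, which stabilizes mitochondrial messages, and *GFM1*, the translocation factor, fell by 0.71 and 0.62. Of 9 genes for transcription and replication of mitochondrial DNA, *POLRMT*, the RNA polymerase, rose by 0.36 while *MTERF1* and *TFB2M*, a factor for its initiation, fell by 0.74 and 0.53. Of 8 tested transcription factor and coactivator genes known for mitochondrial genes, *ESRRA* rose by 0.63, and *GABPA* and *GABPB1*, the subunits of GABP, and *YY1* fell by 0.61, 0.60 and 0.42. None of the genes of these 3 lists was called in siYAP/TAZ. With the trend of GC content and length taken off, 1 translation factor gene, 1 gene for mitochondrial DNA and 4 of the 8 transcription factor and coactivator genes were called lower in siYAP/TAZ, and none of the genes of the 5 lists was called in siHHEX against siNC. Of all tested genes with a transcript, 6.13% were called lower in siYAP/TAZ under this correction.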

How the data were processed

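The authors extracted RNA with Trizol and deposited FPKM for every gene in each library, with no counts, so that depth is unknown. The part of depth in the spread between libraries cannot be told. The submitters' processing notes name Trimmomatic 0.36, HISAT2 2.0.5, Cufflinks 2.2.1 and HTSeq 0.9.1, with no role given here, and the build and annotation of the RNA-seq are not given in the sources used here. The method the study names for differential genes needs counts and was not used. Here limma 3.58.1 in R 4.3.3 was fitted on log2(FPKM + 1) over the 10677 genes that passed the filter, in 1 fit of 8 libraries and 4 groups with a variance trend. A difference on this scale understates the change of low genes. For the correction, log2 values of a library minus those averaged over all 8 were regressed on GC content and log2 length of the canonical transcript (GENCODE 44), each as a natural spline (4 degrees of freedom), and the regression was subtracted. This transcript was found for 96.93% of tested genes and for all 78. The scripts were tested on simulated data. Promoters came from RefSeq (GRCh38.p14). Python 3.11.15, pandas 2.3.3, scipy 1.17.1 and matplotlib 3.10.9 were used for the rest.

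The genes and lists were chosen with earlier results of these data known. Genes named are the 6 highest and 6 lowest in level, the 6 highest and 6 lowest called changes with the same direction in every library in siHHEX and in siYAP/TAZ, 4 and 4 in siTEAD1/2/3/4 and between the knockdowns, up to 3 called genes of each other list, and the targets. Complete lists and *MRPS14*, *TACO1*, *YY1* and *CD68* were named after their values were seen. Alternatives were a pseudocount of 0.1, no filter, median scaling, the correction, the replicate block, a fit of only the groups compared, no variance trend, each library of the replicated groups left out, and a required change over 2-fold with an unadjusted p under 0.05.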

Additional observations from a re-analysis of the deposited data

How the results depend on the processing

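The counts of the 78 genes called depended on several choices. Under the GC and length correction the counts were 8 higher and 0 lower in siHHEX, 12 lower in siYAP/TAZ, and 20 higher and 0 lower in siHHEX against siYAP/TAZ, and the median differences were 0.0319, -0.21 and 0.30. Where over 2-fold change with an unadjusted p under 0.05 was required, they were 0 and 0, 0 lower, and 1 and 0. In siYAP/TAZ the 2 lower calls became 1 with a pseudocount of 0.1, 0 with no filter, 0 with no variance trend, and 8 lower and 1 higher when only siNC and siYAP/TAZ were fitted. The 1 gene lower in siHHEX than in siYAP/TAZ became 0 with no filter, 0 with median scaling and 2 with no variance trend.

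Median scaling moved the median of the 78 to -0.23 in siYAP/TAZ, -0.10 in siTEAD1/2/3/4 and 0.38 in siHHEX against siYAP/TAZ, where it shifted the median of all tested genes by 0.11 and 44 of the 78 were called higher. With each siNC, siHHEX and siYAP/TAZ library left out in turn, siHHEX had 0 to 30 genes higher and 0 to 13 lower, siYAP/TAZ 0 to 5 lower, and siHHEX against siYAP/TAZ 17 to 36 higher and 0 to 5 lower, while the median in siYAP/TAZ was between -0.14 and -0.12 and no median changed sign. Without siNC 1, and without siNC 2, 12 of the 17 differences of named genes were no longer called. Each of these fits leaves 1 siNC library, and none of the 17 differences changed sign in them. *MRPL4* in siHHEX differed by 0.71 in both, and *MRPL52* by 0.87 and 0.66, against 0.76 in the main fit. No pairing by replicate number was seen (correlations of same-numbered deviations from the group mean from -0.07 to 0.02). In a group of 2 libraries these deviations mirror each other, so the values are not independent and cannot exclude a pairing. With the replicate block there were 20 higher and 2 lower in siHHEX, 1 lower in siYAP/TAZ, and 31 higher and 0 lower between them, and with the replicate block and the correction 1 and 0, 4 lower, and 2 and 0. *MRPL19* in siHHEX turned to 0.16 under the correction and to 0.0899 with the replicate block added, and *MRPL42* in siHHEX against siYAP/TAZ to 0.0247 and 0.0875. The cause of these shifts was not tested.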
